A study of Mus musculus with 24 samples.

Results

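The complement and coagulation genes of liver were followed in 24 arrays of mouse liver RNA. The 39 genes were taken by their name on the array, each through its brightest probe over all arrays, and stood among 16990 genes with a tested probe. They comprised 9 genes of complement activation, 5 of the terminal pathway, 5 complement inhibitors and regulators, 13 clotting factors with the contact system, and 7 clotting inhibitors and genes of fibrinolysis. All 39 were well above background on all 24 arrays. The livers came from C57BL/6J mice, an inbred strain, aged 68 weeks, which had received a control diet or a diet with added pesticides for 52 weeks. Age at purchase was 8 weeks, with 2 weeks of acclimatisation. The labels gave 4 groups of 6 liver samples, males and females on each diet, and name none of the pesticides. The question put by the series title was whether a pesticide mixture at the acceptable daily intake disturbs metabolism. The labels count liver samples and number no mouse, so each p-value reflects sample-to-sample spread, which may in part be technical.

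Complement and clotting are the main protease cascades of blood plasma, and hepatocytes make most of their soluble components. Complement is started by antibody, by lectins that bind microbial sugars or by spontaneous turnover of C3, and all routes meet at the cleavage of C3 and then of C5. The terminal components C6, C7, C8 and C9 then assemble on C5b into the membrane attack complex, a pore in the target membrane. Clotting runs through factors VII, X and V to thrombin, the product of F2, which turns fibrinogen into fibrin, and plasmin, made from Plg, dissolves the clot.

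Depth and labels were checked first. The number of probes well above background ranged from 29936 to 39032, the largest being that of the array labelled female pesticide 3. The array labelled female control 4 stood apart from its group, with a median correlation of 0.9856 to the other arrays of its group against at least 0.9885 for every other array. The labelled diets coincided with a sex-linked pattern. Xist, the RNA of the inactive X chromosome, was well above background on 6 of 6 labelled male pesticide and 6 of 6 labelled female pesticide arrays and on 0 of 6 arrays in each labelled control group. Ddx3y, Eif2s3y, Kdm5d and Uty, genes of the Y chromosome, were well above background on 6 of 6 arrays of each labelled control group and on 0 of 6 arrays of each labelled pesticide group. The arrays labelled male pesticide and female control therefore went against their sex labels, and without them no comparison of the diets within a labelled sex can be made. Differences between the labelled diets cannot be told apart from that sex-linked pattern. Groups are named below by their labels.

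Markers of other liver cells also moved with the labelled diet. Beside the counts below, 13.9% of all genes were called higher and 10.9% lower in labelled males, and 10.2% and 10.1% in labelled females. For Kupffer cells and macrophages, 8 of 10 markers rose on the labelled pesticide arrays in labelled males and 8 in labelled females, and their summed signal ran from 26326 to 87323 and from 61904 to 117656 in labelled male control and pesticide arrays. In labelled females that sum ran from 22215 to 107454 in control and from 41433 to 152285 in pesticide arrays. Of 10 endothelial markers, 8 and 7 were higher in labelled males and females, and of 10 stellate cell markers 8 and 4. Their sums in labelled male control and pesticide arrays ran from 20841 to 29602 and from 29166 to 42695 for endothelial markers, and from 32618 to 47803 and from 54542 to 62855 for stellate markers. In labelled females the corresponding ranges were 20491 to 27562 and 31281 to 42548 for endothelial markers, and 36617 to 62975 and 48900 to 61992 for stellate markers. Of 11 hepatocyte markers, 1 was higher and 0 lower in each labelled sex, and their summed signal lay between 2687069 and 2832595 on all arrays; under percentile scaling of the median signal 0 were higher and 4 lower in labelled males, and 0 and 0 in labelled females. Of the remaining marker lists in labelled males and females, 2 and 1 of 5 platelet, 4 and 0 of 6 B cell, 2 and 1 of 5 T and NK cell, 3 and 4 of 5 neutrophil and 0 and 0 of 5 bile duct markers were higher, and 0 lower. The part of these other cells in the differences below was not tested. In whole liver, fewer cells of a type and less RNA per cell cannot be told apart.

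The largest differences among the 39 genes lay in the terminal complement pathway, where C6, C8a, C8b and C9 were lower on the labelled pesticide arrays. The remaining differences were under 2-fold and ran both ways. In labelled males 13 members were higher on the pesticide arrays and 7 lower at a Benjamini-Hochberg adjusted p under 0.05 in limma, where 13.9% and 10.9% of all 16990 genes were called in those directions. In labelled females 14 were higher and 6 lower, against 10.2% and 10.1% of all genes. Averaged over both labelled sexes, 18 were higher and 7 lower, against 19.9% and 18.9% of all genes. The values of the 2 groups did not overlap for 12 members in labelled males, where 11.8% of genes showed no overlap, and for 16 members in labelled females, where 8.72% did. The median difference over the members was 0.11 on the log2 scale in labelled males and 0.13 in labelled females, against -0.02 and -0.01 over all genes. Both labelled sexes shared 12 members called higher and 6 called lower. The share of all genes called in both was not counted, and both comparisons carried the same sex-linked pattern. The average uses the same arrays as the within-sex comparisons and is no independent test.

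The calls of higher members depended on the scaling of the arrays, while those of lower members were kept under scalings that could hardly end them. The reported values come from quantile normalization. The alternatives set each array's 75th percentile to a common value, for the median or the processed signal (percentile scaling below), corrected the background by normexp, or took the authors' deposited log2 values. The normexp and deposited values were quantile normalized too, so among the alternatives only percentile scaling replaced that step. Under these 5 scalings, quantile normalization included, 3 of the 13 higher members in labelled males kept their call, 7 of 14 in labelled females and 9 of 18 in the average. All 7 lower members in labelled males, all 6 in labelled females and all 7 in the average kept theirs. Percentile scaling moved every member downward in the average, so keeping a lower call under it is no test of that call. The share of all genes that kept their calls was not counted. Percentile scaling of either signal added C8g, Clu, Mbl1 and Serping1 to the lower members of the average, at -0.27, -0.31, -0.22 and -0.25 for the median signal. Of all called probes in labelled males, 52.1% were higher under quantile normalization and 38.1% under percentile scaling of the median signal. The median of the 11 hepatocyte markers in the average moved from -0.00 to -0.18 on the log2 scale with that change, and the median over the 39 members from 0.14 to -0.02.

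**Figure D1:**
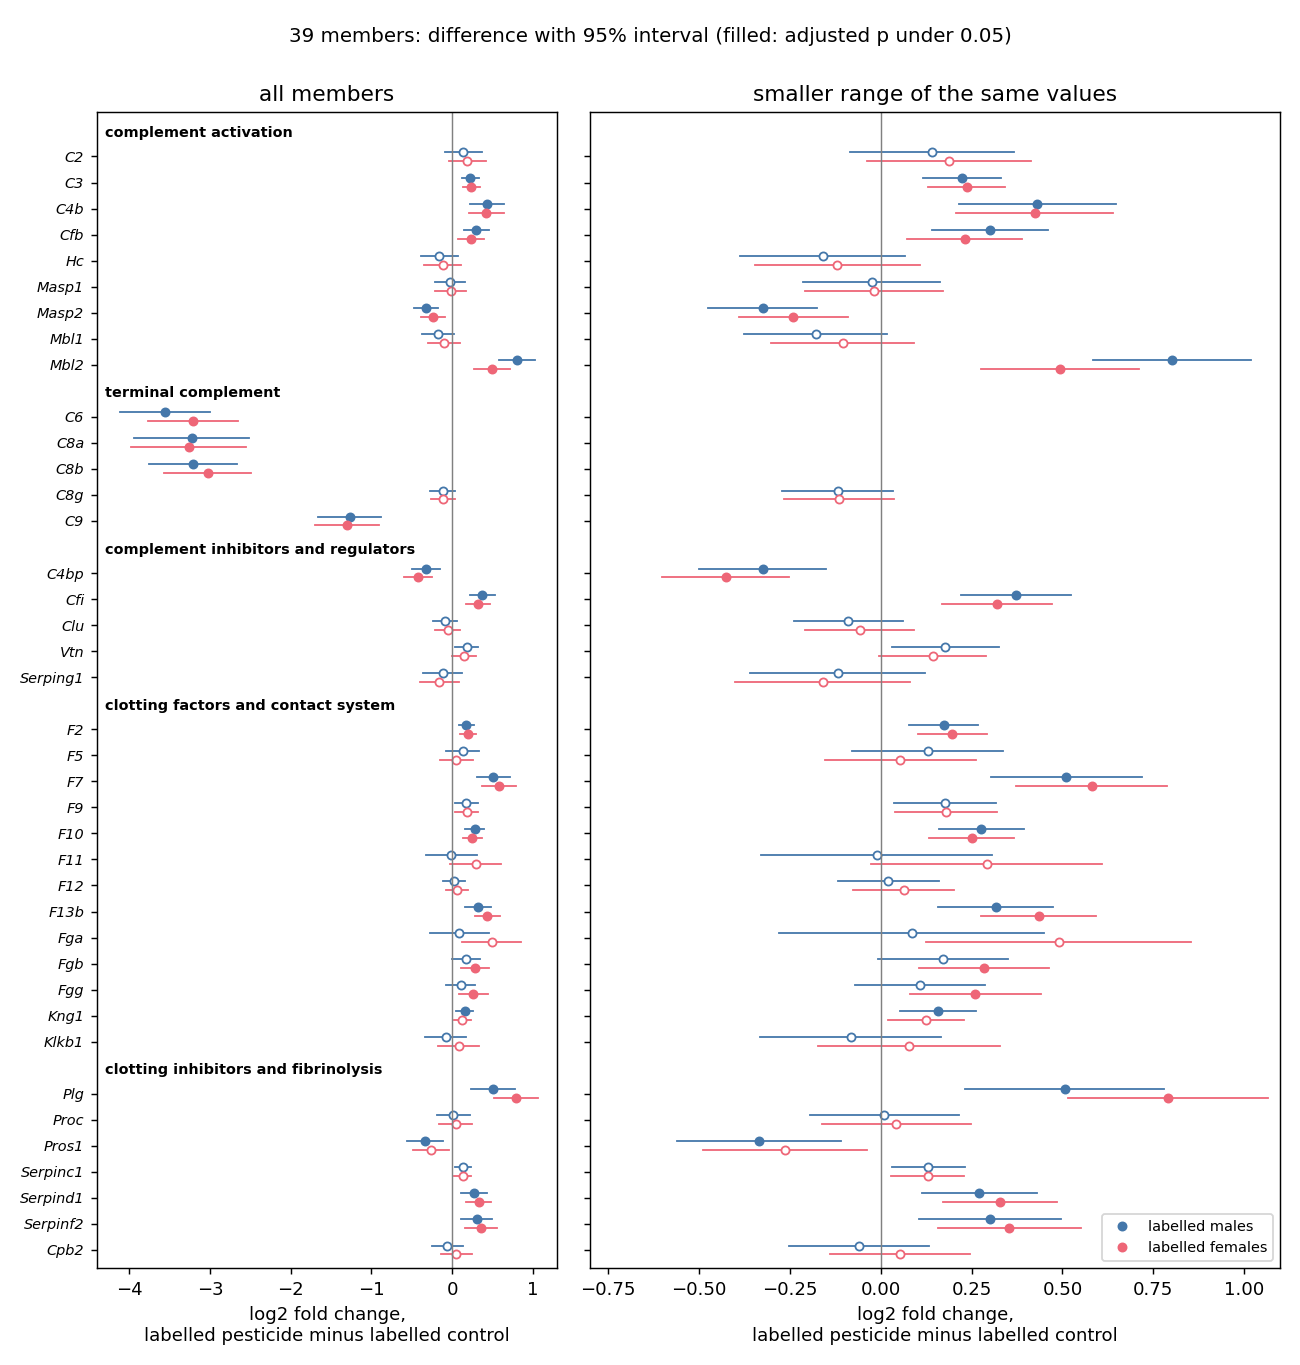
Log2 fold change, labelled pesticide minus labelled control, of the 39 members by role, with the 95% confidence interval from limma; blue points are labelled males, red points labelled females, and filled points have an adjusted p under 0.05. The right panel repeats the smaller range of the same values, so that C6, C8a, C8b and C9 appear in the left panel alone, where they lie between -3.56 and -1.27.

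C6 encodes the terminal component that binds C5b. In labelled males its log2 signal ran from 11.47 to 12.16 on the control arrays (median 11.95) and from 7.94 to 8.64 on the pesticide arrays (median 8.45). In labelled females it ran from 10.28 to 12.37 on control arrays (median 11.53) and from 7.84 to 8.69 on pesticide arrays (median 8.20). No pesticide array reached the lowest control array in either labelled sex. C6 was 11.8-fold lower in labelled males (log2 fold change -3.56, SE 0.27, adjusted p = 7.2e-10 in limma) and 9.27-fold lower in labelled females (-3.21, SE 0.27, adjusted p = 5.8e-09). The labelled female control group was the most spread of the 4, with an SD of 0.89 on the log2 scale against 0.24 to 0.32 in the other groups.

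C8a and C8b encode the alpha and beta chains of C8, the component that first enters the membrane. C8a ran from 13.63 to 14.82 (median 14.22) on labelled male control arrays and from 10.11 to 12.04 (median 10.95) on labelled male pesticide arrays. In labelled females it ran from 13.67 to 14.13 (median 14.01) and from 8.99 to 11.81 (median 10.73). The difference was -3.23 (SE 0.35, adjusted p = 2.9e-07 in limma) in labelled males and -3.26 (SE 0.35, adjusted p = 2.8e-07) in labelled females, a 9.36-fold and a 9.61-fold lower signal, and the groups did not overlap. C8b ran from 14.16 to 14.91 (median 14.58) and from 10.73 to 11.87 (median 11.36) on labelled male control and pesticide arrays. In labelled females C8b ran from 13.23 to 14.97 (median 14.03) and from 10.04 to 11.70 (median 11.15). C8b was 9.25-fold lower in labelled males (-3.21, SE 0.26, adjusted p = 2.5e-09 in limma) and 8.15-fold lower in labelled females (-3.03, SE 0.26, adjusted p = 8.5e-09), again with no overlap. Within both labelled pesticide groups the same replicate numbers held the extremes of both chains, with replicate 3 lowest and replicate 1 highest. Arrays of the same replicate number lay on the same slide. Each chain had a further probe, and these gave average differences of -3.07 for C8a and -3.01 for C8b, beside -3.25 and -3.12 for the brightest probes.

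C9 forms the ring of the membrane pore. It ran from 14.89 to 15.53 (median 15.29) and from 13.41 to 14.38 (median 13.95) on labelled male control and pesticide arrays, and from 14.35 to 15.50 (median 15.05) and from 13.36 to 14.19 (median 13.72) in labelled females. The groups did not overlap, and C9 was 2.41-fold lower in labelled males (-1.27, SE 0.19, adjusted p = 3.8e-05 in limma) and 2.46-fold lower in labelled females (-1.30, SE 0.19, adjusted p = 3.6e-05). C8g, which encodes the gamma chain of C8, a small lipocalin joined to the alpha chain, stood apart from the other subunits. It ran from 16.87 to 17.13 and from 16.75 to 16.97 on labelled male control and pesticide arrays, and from 16.90 to 17.09 and from 16.66 to 17.12 in labelled females, so that the groups overlapped. Its difference was -0.12 in labelled males (95% interval -0.27 to 0.03, adjusted p = 0.27 in limma) and -0.11 in labelled females (-0.27 to 0.04, adjusted p = 0.30). Under percentile scaling of the median signal the C8g difference in labelled males was -0.31 and passed the threshold.

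Differences of this size were uncommon on the arrays. Of 16990 genes, 30 in labelled males and 29 in labelled females were over 8-fold lower on the labelled pesticide arrays, and C6, C8a and C8b were among them in both. On each of the 3 slides taken alone, with 2 arrays a group, the C6 difference lay between -3.82 and -2.93 and that of C8a between -4.04 and -2.44. C8b lay between -3.74 and -2.56, and C9 between -1.79 and -1.01. The second slide gave the lowest value for C8a, C8b and C9 in both labelled sexes.

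**Figure D2:**
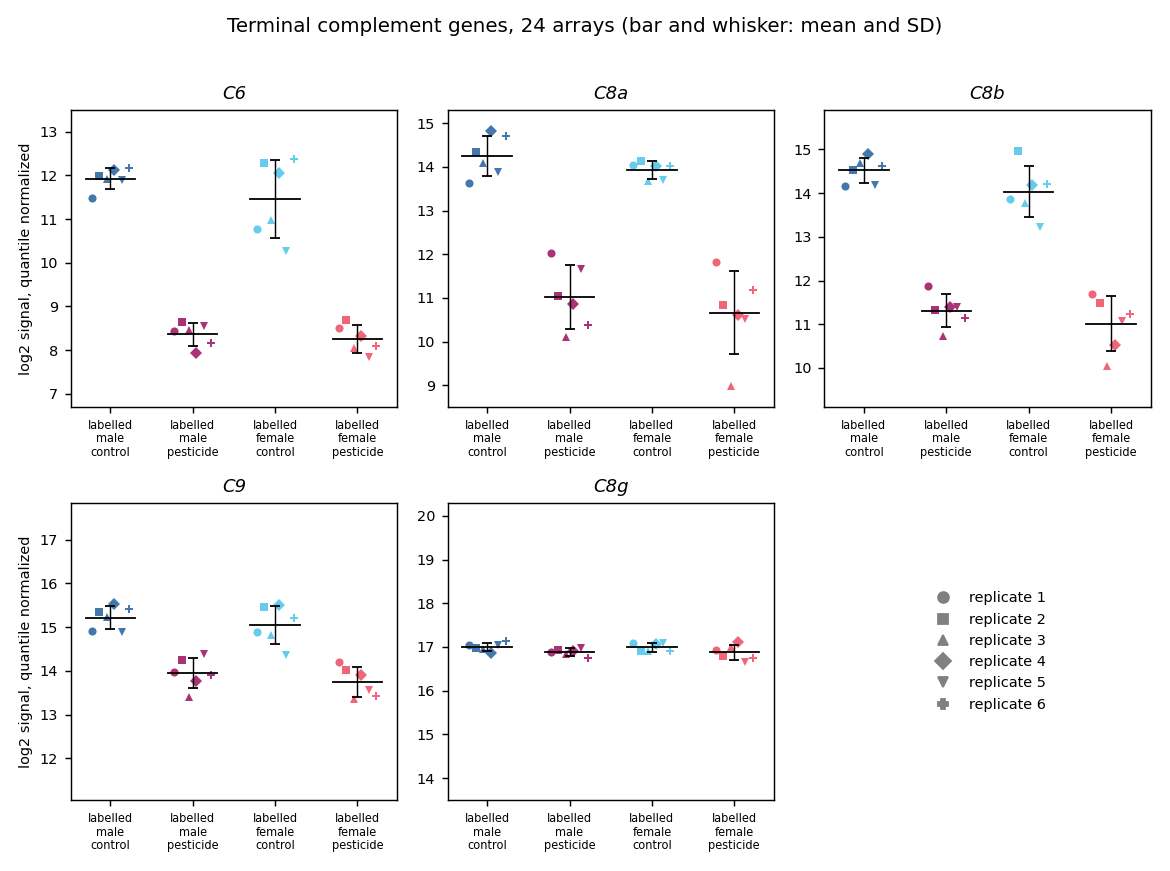
Log2 signal of the 5 terminal complement genes on the 24 arrays, by labelled group, with each axis covering the same span; symbols mark the replicate number, horizontal bars the mean and whiskers the SD of 6 arrays. C6, C8a, C8b and C9 were lower on all labelled pesticide arrays than on any control array of the same labelled sex, while C8g lay between 16.66 and 17.13 throughout.

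The probes of C8a and C8b lie 11.4 kb apart on chromosome 4 (mm9, chr4:104488479-104488538 and chr4:104477094-104477153), and the genes are transcribed towards each other. The C6 and C9 probes cross exon junctions on chromosome 15 (chr15:4689842-4705241 and chr15:6447161-6448472) and lie 1757.3 kb apart. C8g is on chromosome 2 (chr2:25354176-25354235). Since C6, C8a, C8b and C9 moved together, the 250 bases before their RefSeq transcription starts are shown in GRCm38.p6, 5′ to 3′ in the direction of the gene. Capitals mark matches to TTCNNNGAA, the STAT element, to GTTAAT, one arm of the HNF1 palindrome, or to ATCAAT, a form bound by HNF6, searched on both strands.
C6, chr15:4726960-4727209, plus strand: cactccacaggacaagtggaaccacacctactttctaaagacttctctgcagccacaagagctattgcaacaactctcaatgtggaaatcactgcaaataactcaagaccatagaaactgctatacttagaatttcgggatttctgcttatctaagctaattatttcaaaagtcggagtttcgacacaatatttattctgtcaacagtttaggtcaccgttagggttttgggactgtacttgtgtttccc
C8a, chr4:104876399-104876648, minus strand: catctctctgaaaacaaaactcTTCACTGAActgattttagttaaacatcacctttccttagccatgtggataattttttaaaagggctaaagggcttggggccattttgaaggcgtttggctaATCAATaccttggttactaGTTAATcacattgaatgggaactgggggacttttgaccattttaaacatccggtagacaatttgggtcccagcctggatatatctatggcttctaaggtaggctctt
C8b, chr4:104766067-104766316, plus strand: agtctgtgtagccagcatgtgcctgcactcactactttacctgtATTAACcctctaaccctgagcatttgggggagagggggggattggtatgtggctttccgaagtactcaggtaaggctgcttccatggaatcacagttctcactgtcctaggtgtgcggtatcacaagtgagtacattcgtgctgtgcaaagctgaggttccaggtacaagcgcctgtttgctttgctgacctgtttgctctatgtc
C9, chr15:6445096-6445345, plus strand: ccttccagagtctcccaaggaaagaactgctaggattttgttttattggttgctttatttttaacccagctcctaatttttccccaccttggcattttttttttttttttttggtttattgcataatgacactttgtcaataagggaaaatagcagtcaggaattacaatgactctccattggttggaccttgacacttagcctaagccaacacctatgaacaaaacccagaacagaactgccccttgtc
C8a held 1 match to each of the 3, TTCACTGAA at -228, ATCAAT at -126 and GTTAAT at -107 from the start, and C8b held ATTAAC, the reverse complement of GTTAAT, at -206. These letters were absent from the windows of C6 and C9, and also from those of C8g, which are not shown. Among 32851 RefSeq promoter windows of the same length, TTCNNNGAA was in 7.02%, GTTAAT in 6.43% and ATCAAT in 6.72%. Of the 39 members 29 had a RefSeq window, and 6 held TTCNNNGAA, 8 held GTTAAT and 5 held ATCAAT in at least 1 window. Members were counted by gene and the percentages by window, so they cannot be compared directly. CAAAGTCCA, an HNF4 site, TTGCGCAA, a C/EBP site, and ATCGAT, another HNF6 form, were in 0 of the 29 and in 0.384%, 0.164% and 0.728% of all windows. A match describes these letters and shows no binding.

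Of the 9 activation genes, 4 were higher and 1 lower in each labelled sex, all by under 2-fold. Of all genes 13.9% were higher and 10.9% lower in labelled males, and 10.2% and 10.1% in labelled females. Mbl2, which encodes mannose-binding lectin C, had the largest rise of the complement genes in labelled males. Its log2 signal ran from 16.30 to 16.87 (median 16.67) on control and from 17.30 to 17.54 (median 17.45) on pesticide arrays there, with no overlap. In labelled females it ran from 16.52 to 17.25 (median 16.70) and from 17.19 to 17.39 (median 17.31), where the control array 4 lay within the pesticide range. The difference was 0.80 (SE 0.11, adjusted p = 6.4e-06 in limma) in labelled males and 0.49 (SE 0.11, adjusted p = 0.0021) in labelled females. Mbl2 kept its call under the 5 scalings, with 0.57 and 0.36 under percentile scaling of the median signal. The other mannose-binding lectin, Mbl1, differed by -0.18 (adjusted p = 0.19) and -0.11 (adjusted p = 0.48).

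C4b, Cfb and C3 were higher in both labelled sexes, but not under every scaling. C4b encodes C4, which antibody- and lectin-triggered complement share. It ran from 16.82 to 17.42 (median 16.89) and from 17.24 to 17.64 (median 17.47) in labelled males, and from 16.79 to 17.24 (median 17.01) and from 17.27 to 17.59 (median 17.46) in labelled females. The difference was 0.43 (SE 0.10, adjusted p = 0.0046 in limma) and 0.42 (SE 0.10, adjusted p = 0.0064), with overlap in labelled males alone. C4a is a near-identical neighbour whose RNA could bind the same probe, so the C4b signal is uncertain as to its source. Cfb encodes factor B, the protease of the alternative pathway. It ran from 16.23 to 16.66 (median 16.34) and from 16.49 to 16.87 (median 16.74) in labelled males, and from 16.36 to 16.56 (median 16.46) and from 16.54 to 16.81 (median 16.72) in labelled females. Cfb differed by 0.30 (SE 0.08, adjusted p = 0.0068 in limma) and 0.23 (SE 0.08, adjusted p = 0.038), and the ranges overlapped slightly in both. The Cfb call in labelled females ended when any one of control arrays 1, 2, 3 and 5 or pesticide arrays 1, 2, 4 and 6 was left out (adjusted p between 0.051 and 0.08). C3, on which all routes converge, ran from 18.39 to 18.56 (median 18.45) and from 18.62 to 18.72 (median 18.70) in labelled males, and from 18.35 to 18.60 (median 18.45) and from 18.66 to 18.72 (median 18.68) in labelled females, without overlap. C3 differed by 0.22 (SE 0.05, adjusted p = 0.0030 in limma) and 0.24 (SE 0.05, adjusted p = 0.0023), but in labelled males its sign turned to -0.01 under percentile scaling of the processed signal. Within either labelled sex the 3 genes lost their calls under at least 1 scaling.

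Masp2 was the activation gene that was lower. It encodes the lectin-pathway protease that cleaves C4 and C2. It ran from 14.33 to 14.60 (median 14.43) and from 13.96 to 14.37 (median 14.12) in labelled males, and from 14.17 to 14.45 (median 14.36) and from 13.95 to 14.26 (median 14.08) in labelled females, with overlap in both. The difference was -0.32 (SE 0.07, adjusted p = 0.0024 in limma) and -0.24 (SE 0.07, adjusted p = 0.023). In labelled females the call ended without control array 5 (adjusted p = 0.051), without pesticide array 2 (adjusted p = 0.059), and without the pair of control array 4 and pesticide array 3 (adjusted p = 0.064). A further Masp2 probe differed by -0.28 and -0.24 in labelled males and females (adjusted p = 0.018 and 0.051 in limma). A dimmer Masp2 probe differed by -0.20 and -0.06 and did not pass (adjusted p = 0.27 and 0.79 in limma). C2, Hc and the brightest Masp1 probe did not pass in any diet comparison under quantile normalization of all arrays. In the average C2 passed without labelled female control 4 and female pesticide 3 (adjusted p = 0.044 in limma), and Hc under percentile scaling of the processed signal (adjusted p = 0.033). C2, the protease partner of C4, differed by 0.14 and 0.19 in labelled males and females. Hc, which encodes complement C5, differed by -0.16 and -0.12.

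The result for Masp1 depended on the probe. Masp1 encodes several proteins by alternative splicing, among them the proteases MASP-1 and MASP-3. The brightest probe, at chr16:23449609-23449668 (mm9), differed by -0.02 in labelled males and -0.02 in labelled females (adjusted p = 0.88 and 0.91 in limma). The probe at chr16:23468544-23468603 differed by 0.59 and 0.57 (adjusted p = 0.00021 and 0.00037), and that at chr16:23490405-23490464 by 0.44 and 0.56 (adjusted p = 0.028 and 0.0070). The mean over the tested Masp1 probes turned the sign of the gene, to 0.18 in labelled males and 0.24 in labelled females (adjusted p = 0.038 and 0.011 in limma). In all, 18 further tested probes of 13 members could be set beside the brightest probe of the same gene. Of these 15 had the same direction, and the other 3 were Masp1 probes. In the average, 3 further probes, of Masp2, Plg and Serpinc1, did not pass where the brightest did, and 2 of Masp1 passed where the brightest did not. The further C3 probe differed by 0.52 in both labelled sexes, more than the brightest.

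Among the 5 complement inhibitors and regulators 1 gene was lower and 1 higher in both labelled sexes. Of all genes 10.9% were lower and 13.9% higher in labelled males, and 10.1% and 10.2% in labelled females. C4bp encodes the C4b-binding protein, a cofactor that turns off C4b. It ran from 15.54 to 15.93 (median 15.70) and from 15.21 to 15.55 (median 15.41) in labelled males, and from 15.60 to 16.07 (median 15.73) and from 15.16 to 15.50 (median 15.38) in labelled females. The difference was -0.33 (SE 0.09, adjusted p = 0.0080 in limma) and -0.43 (SE 0.09, adjusted p = 0.0011), with slight overlap in labelled males and none in labelled females. Cfi encodes factor I, the protease that cleaves C3b and C4b. It ran from 15.93 to 16.33 (median 16.19) and from 16.46 to 16.77 (median 16.50) in labelled males, and from 16.08 to 16.29 (median 16.22) and from 16.38 to 16.68 (median 16.51) in labelled females, without overlap. Cfi differed by 0.37 (SE 0.07, adjusted p = 0.00080 in limma) and 0.32 (SE 0.07, adjusted p = 0.0036). Its call in labelled males was lost under percentile scaling of the processed signal. Vtn, vitronectin, which blocks the membrane pore, passed in the average alone at 0.16 (adjusted p = 0.015), and its sign turned to -0.06 under percentile scaling of the median signal. Clu, clusterin, differed by -0.09 and -0.06 and Serping1, the C1 inhibitor, by -0.12 and -0.16, and neither passed.

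**Figure D3:**
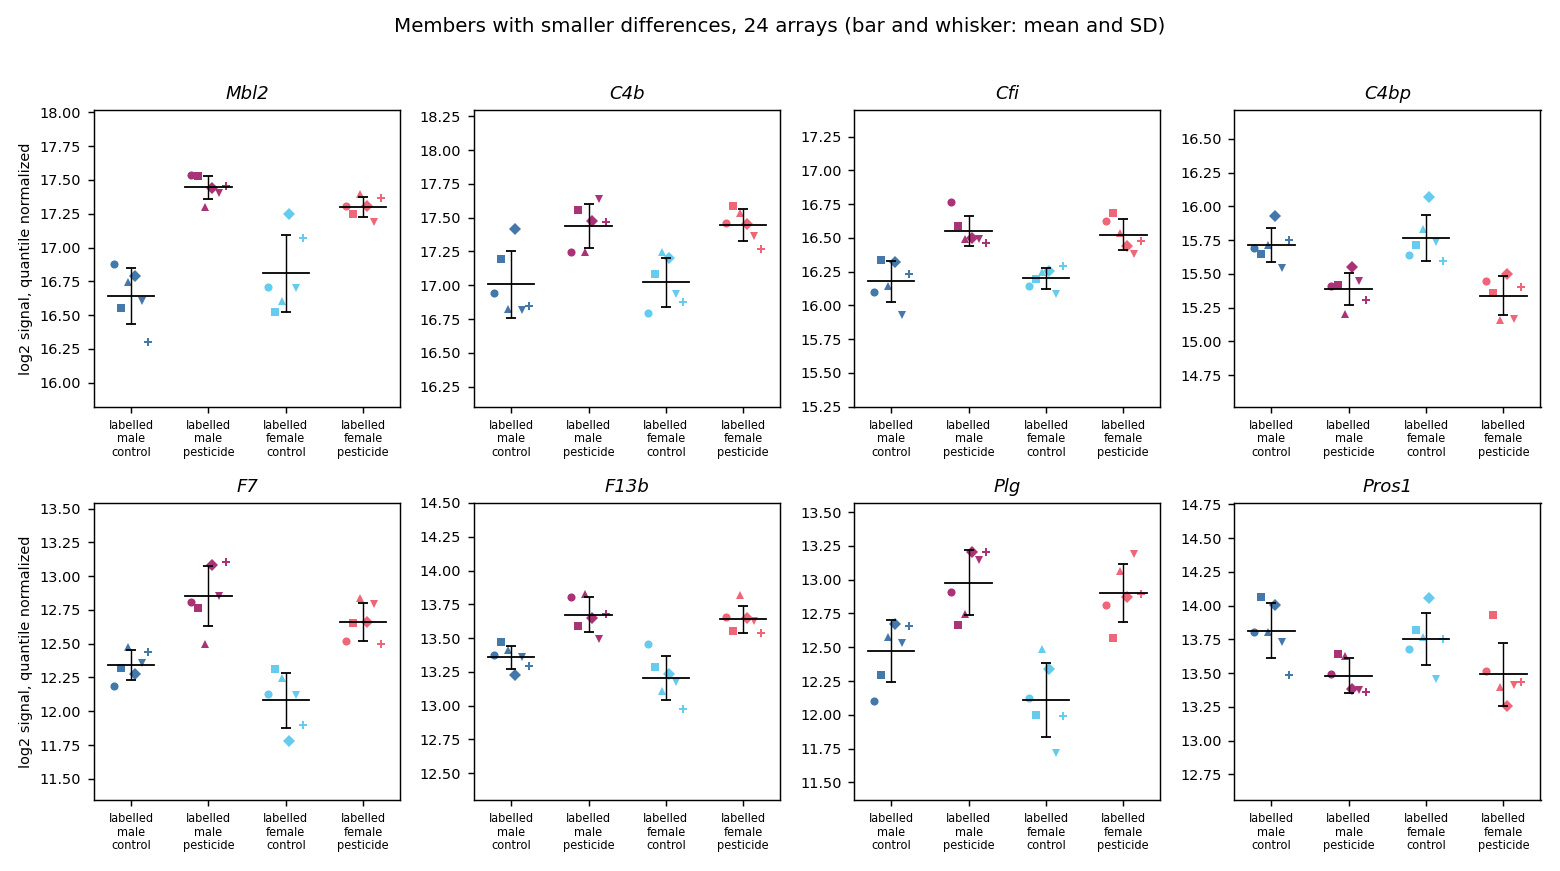
Log2 signal of 8 members with differences under 2-fold on the 24 arrays, by labelled group, each axis covering the same span; symbols mark the replicate number (circle 1, square 2, upward triangle 3, diamond 4, downward triangle 5, plus 6), bars the mean and whiskers the SD of 6 arrays. Mbl2, C4b, Cfi, F7, F13b and Plg were higher and C4bp and Pros1 lower on the labelled pesticide arrays on average; Pros1 passed in labelled males and not in labelled females.

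Of the 13 clotting factors 5 were higher in labelled males and 6 in labelled females, where 13.9% and 10.2% of all genes were. None was called lower, where 10.9% and 10.1% of all genes were. F7 encodes factor VII, which starts clotting with tissue factor. It ran from 12.19 to 12.48 (median 12.34) and from 12.50 to 13.11 (median 12.83) in labelled males, and from 11.78 to 12.31 (median 12.12) and from 12.50 to 12.84 (median 12.66) in labelled females, with no overlap. F7 differed by 0.51 (SE 0.10, adjusted p = 0.00081 in limma) and 0.58 (SE 0.10, adjusted p = 0.00026), and kept its call under the 5 scalings in both labelled sexes. F10, which encodes factor X, lies 20.5 kb from F7 on chromosome 8 by probe position. It ran from 16.31 to 16.55 (median 16.46) and from 16.58 to 16.84 (median 16.73) in labelled males, and from 16.37 to 16.44 (median 16.40) and from 16.59 to 16.73 (median 16.65) in labelled females, with no overlap. F10 differed by 0.28 (SE 0.06, adjusted p = 0.0012 in limma) and 0.25 (SE 0.06, adjusted p = 0.0034). F13b encodes the carrier subunit of factor XIII, the enzyme that crosslinks fibrin. It ran from 13.23 to 13.47 (median 13.37) and from 13.49 to 13.83 (median 13.66) in labelled males, and from 12.97 to 13.45 (median 13.20) and from 13.53 to 13.82 (median 13.64) in labelled females, with no overlap. F13b differed by 0.32 (SE 0.08, adjusted p = 0.0045 in limma) and 0.43 (SE 0.08, adjusted p = 0.00031). F10 lost its call within both labelled sexes under at least 1 scaling, and F13b in labelled males.

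F2, prothrombin, showed narrow groups and a small difference. It ran from 17.81 to 17.89 (median 17.84) and from 17.97 to 18.08 (median 18.02) in labelled males, and from 17.74 to 17.90 (median 17.83) and from 17.98 to 18.05 (median 18.01) in labelled females, with no overlap. F2 differed by 0.17 (SE 0.05, adjusted p = 0.0086 in limma) and 0.20 (SE 0.05, adjusted p = 0.0043), and its sign in labelled males turned to -0.01 under percentile scaling of the median signal. Kng1, kininogen, the contact-system carrier of bradykinin, differed by 0.16 (SE 0.05, adjusted p = 0.027 in limma) in labelled males and 0.12 (SE 0.05, adjusted p = 0.091) in labelled females. It ran from 18.17 to 18.40 (median 18.27) and from 18.33 to 18.50 (median 18.42) in labelled males, which overlapped, and from 18.24 to 18.31 (median 18.25) and from 18.33 to 18.44 (median 18.39) in labelled females, which did not. The Kng1 sign turned to -0.07 in labelled males under percentile scaling of the median signal. Its call in labelled males ended without control array 5 or 6 or pesticide array 4 or 6 (adjusted p between 0.053 and 0.065). Kng2 is a close paralog, so its RNA may add to the Kng1 signal. F9, factor IX, on the X chromosome, differed by 0.18 in each labelled sex (adjusted p = 0.063 and 0.066) and passed in the average alone (adjusted p = 0.0052), a call lost under percentile scaling of the median signal (0.10, adjusted p = 0.13) and of the processed signal (0.08, adjusted p = 0.21). It ran from 13.11 to 13.34 (median 13.27) and from 13.33 to 13.56 (median 13.39) in labelled males, and from 13.09 to 13.40 (median 13.22) and from 13.27 to 13.52 (median 13.42) in labelled females, with overlap in both.

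The 3 fibrinogen chains, neighbours on chromosome 3, were called in labelled females for Fgb and Fgg and in labelled males for none. Fgb, the beta chain, ran from 18.14 to 18.67 (median 18.34) and from 18.40 to 18.66 (median 18.51) in labelled males, and from 18.06 to 18.50 (median 18.19) and from 18.45 to 18.65 (median 18.55) in labelled females. Fgb differed by 0.17 (SE 0.09, adjusted p = 0.17 in limma) in labelled males and 0.28 (SE 0.09, adjusted p = 0.024) in labelled females. Fgg, the gamma chain, ran from 17.96 to 18.36 (median 18.11) and from 18.12 to 18.35 (median 18.24) in labelled males, and from 17.79 to 18.29 (median 17.97) and from 18.10 to 18.45 (median 18.28) in labelled females. Fgg differed by 0.11 (SE 0.09, adjusted p = 0.40 in limma) and 0.26 (SE 0.09, adjusted p = 0.038). The groups of both genes overlapped in both labelled sexes. Fga, the alpha chain, ran from 14.38 to 15.65 (median 14.87) and from 14.56 to 15.40 (median 14.96) in labelled males, and from 14.37 to 15.04 (median 14.55) and from 14.84 to 15.44 (median 15.14) in labelled females. Fga differed by 0.09 and 0.49 (adjusted p = 0.78 and 0.056), with a wide 95% interval of 0.12 to 0.85 in labelled females. Both calls in labelled females were lost under percentile scaling of the median signal, at 0.11 for Fgb and 0.08 for Fgg (adjusted p = 0.56 and 0.70), and of the processed signal, at 0.09 and 0.06 (adjusted p = 0.67 and 0.78). The Fgb call ended without control array 1, 4 or 6 or pesticide array 1 or 4 (adjusted p between 0.051 and 0.055), and the Fgg call without control array 1, 4, 5 or 6 or pesticide array 1, 2 or 5 (adjusted p between 0.064 and 0.093). Without control array 4 and pesticide array 3 together the adjusted p was 0.053 for Fgb and 0.055 for Fgg. In the average the Fgg sign turned to -0.01 under percentile scaling of the median signal.

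In fibrinolysis Plg, plasminogen, had the largest rise of the clotting genes in labelled females. It ran from 12.10 to 12.67 (median 12.56) and from 12.67 to 13.20 (median 13.03) in labelled males, and from 11.72 to 12.48 (median 12.06) and from 12.57 to 13.19 (median 12.88) in labelled females. The difference was 0.51 (SE 0.13, adjusted p = 0.0081 in limma) in labelled males, where the groups touched, and 0.79 (SE 0.13, adjusted p = 0.00019) in labelled females, where they did not overlap. Plg kept its call under the 5 scalings in both labelled sexes. A dimmer Plg probe differed by 0.07 and 0.29 and did not pass (adjusted p = 0.81 and 0.29), and on the mean of both probes the Plg call in labelled males was lost (adjusted p = 0.09). Serpinf2, alpha-2-antiplasmin, the main inhibitor of plasmin, was also higher. It ran from 15.94 to 16.59 (median 16.35) and from 16.34 to 16.80 (median 16.61) in labelled males, and from 15.86 to 16.31 (median 16.19) and from 16.47 to 16.60 (median 16.50) in labelled females. Serpinf2 differed by 0.30 (SE 0.10, adjusted p = 0.025 in limma), with overlap, and 0.35 (SE 0.10, adjusted p = 0.011), without overlap. Its call in labelled males ended without control array 1 or 3 or pesticide array 1 or 4 (adjusted p between 0.051 and 0.072). Cpb2, which makes fibrin resistant to plasmin, differed by -0.06 and 0.05 and did not pass.

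Among the clotting inhibitors Serpind1 was higher and Pros1 lower. Serpind1 encodes heparin cofactor II, a thrombin inhibitor. It ran from 15.38 to 15.68 (median 15.50) and from 15.60 to 15.89 (median 15.80) in labelled males, and from 15.21 to 15.59 (median 15.47) and from 15.60 to 15.90 (median 15.74) in labelled females. Serpind1 differed by 0.27 (SE 0.08, adjusted p = 0.013 in limma), with overlap, and 0.33 (SE 0.08, adjusted p = 0.0041), with none. Pros1 encodes protein S, the cofactor of activated protein C. It ran from 13.49 to 14.06 (median 13.80) and from 13.36 to 13.64 (median 13.44) in labelled males, and from 13.46 to 14.05 (median 13.76) and from 13.26 to 13.93 (median 13.42) in labelled females, with overlap in both. Pros1 differed by -0.33 (SE 0.11, adjusted p = 0.030 in limma) in labelled males and -0.26 (SE 0.11, adjusted p = 0.098) in labelled females. The call in labelled males ended without control array 2 or 4 or pesticide array 4, 5 or 6 (adjusted p between 0.059 and 0.075). Serpinc1, antithrombin, differed by 0.13 in each labelled sex (adjusted p = 0.056 and 0.069) and passed in the average alone (adjusted p = 0.0049), where its sign turned to -0.04 under percentile scaling of the median signal. It ran from 17.97 to 18.06 (median 18.03) and from 18.09 to 18.22 (median 18.16) in labelled males, with no overlap, and from 17.94 to 18.12 (median 17.97) and from 18.09 to 18.22 (median 18.11) in labelled females, with overlap. With slide as a block Serpinc1 passed within both labelled sexes (adjusted p = 0.027 and 0.034 in limma). Proc, protein C, differed by 0.01 and 0.04, and Serpind1 and Serpinf2 lost their calls in labelled males under at least 1 scaling.

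**Figure D4:**
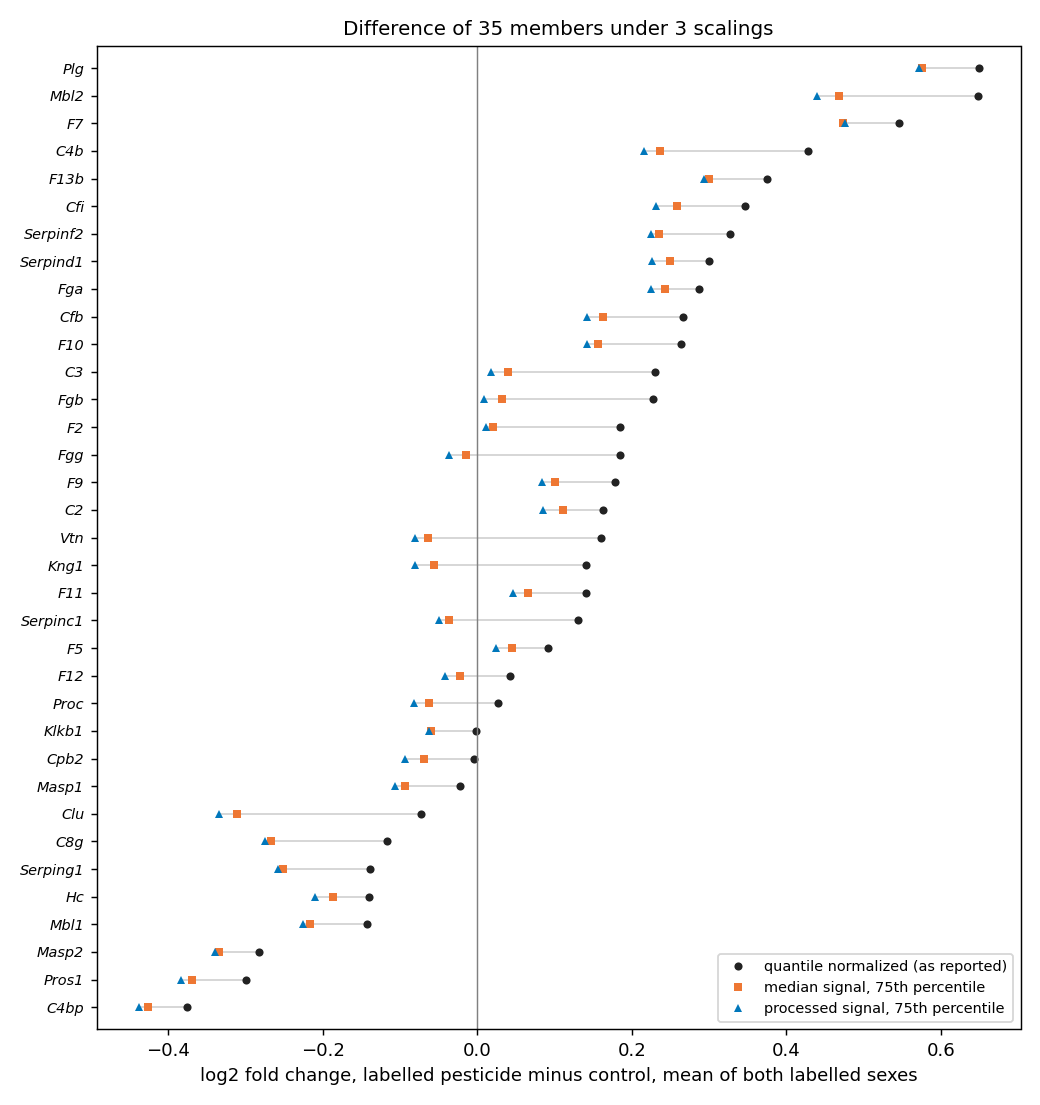
Average log2 fold change over both labelled sexes of the 35 members other than C6, C8a, C8b and C9, under quantile normalization (black circles) and under scaling of the median (orange squares) or processed signal (blue triangles) to the 75th percentile. Both percentile scalings lie to the left of the quantile value for each gene drawn; Vtn, Kng1, Fgg, Serpinc1, F12 and Proc cross 0, of which F12 and Proc were not called, while Plg, Mbl2 and F7 stay at 0.44 or more.

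Under quantile normalization 14 members passed in none of the 3 diet comparisons, among them the contact-system genes F11, F12 and Klkb1 and the cofactor F5. Their average differences lay between -0.14 and 0.29, and their 95% intervals between -0.31 and 0.55. No member was called different between the labelled sexes. On each labelled diet the arrays of both labelled sexes had the same pattern of Xist and Y-linked genes. These comparisons therefore cannot show whether a member differs between the sexes. The difference of the labelled diet contrasts, female minus male, was called for 0 of 39 members, and of all genes for 0%. At an unadjusted p under 0.05 in limma, 1265 of 32080 tested probes passed for that difference. In limma 1 member, Mbl2, had an unadjusted p under 0.05, with a difference of -0.31 (SE 0.15, 95% interval -0.62 to -0.00, adjusted p = 1). The widest interval of such a difference reached 1.01 to either side of its value on the log2 scale, so that differences of that size between the labelled sexes were not detectable for every gene. Labelled males and females were not called apart for any of the 39 members on the control diet (0% of all genes, 3 members at an unadjusted p under 0.05) or on the pesticide diet (0% of all genes, 0 members). Of 32080 tested probes, 1792 on the control diet and 1311 on the pesticide diet had an unadjusted p under 0.05 in limma. The 3 members were Plg, F7 and F11, whose means were 0.36, 0.26 and 0.38 above in labelled males (adjusted p = 0.66, 0.70 and 0.75 in limma). F11, factor XI, ran from 11.99 to 12.30 (median 12.14) and from 11.83 to 12.42 (median 12.18) on labelled male control and pesticide arrays, and from 11.23 to 12.25 (median 11.75) and from 11.64 to 12.28 (median 12.18) in labelled females, so that its groups overlapped. The labelled diet contrasts had the same sign in both labelled sexes for 36 members, the others being F11, Klkb1 and Cpb2. The share of all genes with the same sign was not counted.

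The other genes of the cascades included larger differences in both directions. Of 51 tested, 16 were higher and 4 lower in labelled males, 18 and 4 in labelled females, and 27 and 6 in the average. Of all genes 13.9% and 10.9%, 10.2% and 10.1%, and 19.9% and 18.9% were higher and lower in these comparisons. Susd4, a membrane regulator of complement, differed by -5.63 (SE 0.21) in labelled males and -4.78 (SE 0.21) in labelled females (adjusted p = 1.5e-16 and 6.1e-15 in limma). F2r, the thrombin receptor, was lower by -1.29 and -1.02 (adjusted p = 9.2e-07 and 3.5e-05). Serpina5, the protein C inhibitor, differed by -1.43 and -1.54. It was well above background on 1 of 6 pesticide arrays in each labelled sex against 6 of 6 control arrays, which leaves the size of its difference uncertain. Serpina5 met the filter for testing through the labelled control groups alone, where it was high, so its call is no separate support. Cfp, properdin, which stabilises the alternative pathway, was higher by 1.50 and 1.42, and Fcna, ficolin A, by 1.25 and 1.20. Vsig4, a complement receptor that is also one of the Kupffer markers, was higher by 1.88 and 1.65. Colec11, a lectin that is also one of the stellate markers, was higher by 0.96 and 0.76, and Hgfac, the protease that activates hepatocyte growth factor, by 0.61 and 0.48. These 8 kept their direction and call under the 5 scalings in both labelled sexes. C7, the terminal component not among the 39 members, lay between 7.70 and 8.90 on the log2 scale and differed by -0.28 and -0.10 (adjusted p = 0.20 and 0.68).

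**Figure D5:**
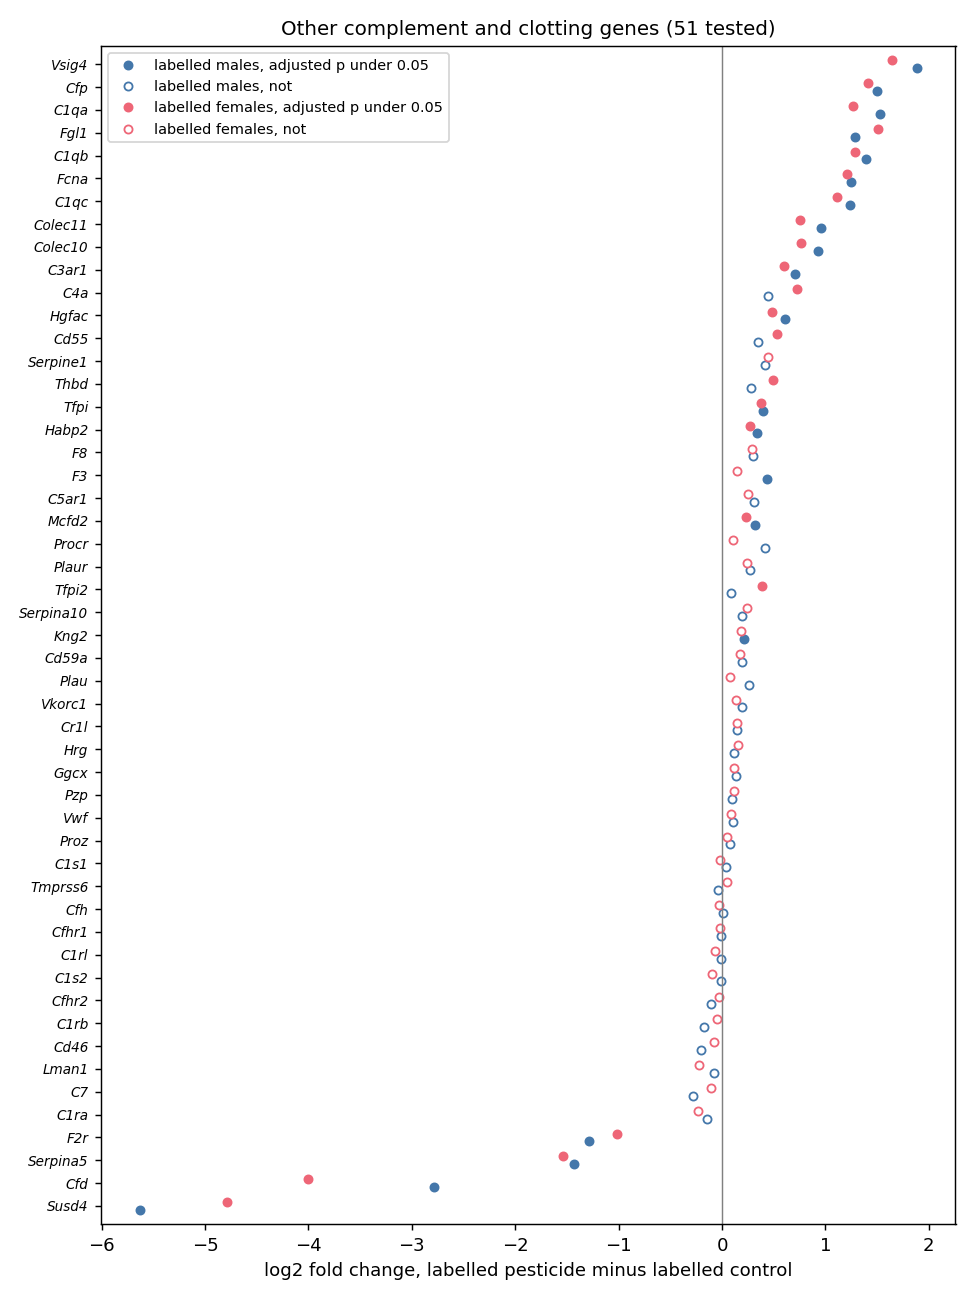
Log2 fold change, labelled pesticide minus labelled control, of the 51 other tested genes of complement and clotting, sorted by the average; blue is labelled males, red labelled females, filled points have an adjusted p under 0.05 in limma. Susd4 lies at the lower end, at -5.63 and -4.78, and Vsig4 at the upper, at 1.88 and 1.65.

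Of 24 transcription factors and receptors 4 were higher and 3 lower in labelled males, where 13.9% and 10.9% of all genes were called, and 4 and 2 in labelled females, where 10.2% and 10.1% were. Cux2, a factor known for its higher level in female mouse liver, was higher by 4.36 and 4.58. Cux2 met the filter for testing through the labelled pesticide groups alone, where it was high, so its call is no separate support. It was well above background on 2 of 6 labelled male control and 1 of 6 labelled female control arrays, and on 6 of 6 pesticide arrays in each. The size of its difference therefore rests on control arrays mostly not well above background. Esr1, the estrogen receptor, was higher by 1.11 and 1.15, and Nr1h4, the bile acid receptor, was lower by -0.42 and -0.38. Of 20 acute phase genes 4 were higher and 1 lower in labelled males, and 5 and 1 in labelled females. Fgl1, a fibrinogen-like secreted protein, was higher by 1.29 and 1.50, Lbp, the lipopolysaccharide-binding protein, by 0.62 and 1.22, and Itih4 by 0.50 and 0.59. Serpina3m was lower by -0.37 and -0.30. Lbp and Itih4 lost their calls in labelled males under percentile scaling, while the other 5 named genes of these lists kept theirs in both labelled sexes under the 5 scalings.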

How the data were processed

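RNA of 24 liver samples was measured on single-colour Agilent arrays. The authors deposited scanner files of spot intensity from Feature Extraction 10.10.1.1 (Agilent), per the labels. Their deposited table of log2 values was filtered and quantile normalized, per the labels. Control spots (3671 of 62976) and outlier spots (0 to 9 per array) were left out, and the median signal was log2 transformed and quantile normalized over 56605 probes without background subtraction. A probe was tested when well above background on at least 4 of 6 arrays of a group (32080 probes). One mean per group was fitted with limma 3.58.1 in R 4.3.3, with no block; tests were two-sided, with Benjamini-Hochberg adjustment over tested probes, and were tested on simulated data.

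The members and gene lists were chosen with earlier results of these data known. Members called in a diet comparison, or among the 3 smallest p of any comparison, are given in full, the others by range; 8 other cascade genes and 4 of each other list with the smallest average p are named, except 1 that is not reported here. Gene background uses the brightest tested probe per name. Array number limits the precision. Probe positions are mm9 per the file headers; promoters are from RefSeq, GRCm38.p6. Each slide held 8 arrays, 2 of each group, and arrays of the same replicate number lay on the same slide. Same-numbered arrays of different groups had deviation correlations between -0.118 and 0.337. Their median was 0.078, against -0.0216 for arrays of different numbers. The main fit took neither pairs nor a slide block, so spread shared by number or slide remains in it.

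Alternatives were other scalings and filters, slide or replicate number as a block, slides alone, the deposited values, the mean of a gene's probes and each array left out. Leaving out labelled female control 4 and female pesticide 3 together was added after seeing the data.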

Additional observations from a re-analysis of the deposited data

Results flagged for a closer look

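Within groups of 6 arrays, 3 of 156 gene and group combinations held 1 array far from the others, where chance flags about 1 in 20. Serping1 reached 16.92 on the log2 scale on the array labelled female control 4, the highest of its group, with the next array at 16.60. Serpinf2 was lowest on female control 6, at 15.86, with the next at 16.16. Klkb1 was highest on male control 6, at 14.64, with the next at 14.21. Of these genes Serpinf2 was called in both labelled sexes and the other two in neither.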

How the results depend on the processing

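Under percentile scaling of the median signal in place of quantile normalization, 4 members were higher in labelled males, 7 in labelled females and 10 in the average, and 11 were lower in the average; with the processed signal these were 3, 7, 9 and 12. The median signal turned F2 (-0.0143) and Kng1 (-0.0746) in labelled males, and Vtn (-0.0639), Fgg (-0.0144), Serpinc1 (-0.0367) and Kng1 (-0.0553) in the average. The processed signal turned C3 (-0.0108), F2 (-0.0264) and Kng1 (-0.108) in labelled males, and Vtn (-0.0806), Fgg (-0.036), Serpinc1 (-0.05) and Kng1 (-0.0804) in the average. The mean of its probes turned Masp1 to 0.1845 in labelled males, 0.2368 in labelled females and 0.2106 in the average. The cause was not tested.

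Slides 1, 2 and 3 alone, with 2 arrays a group, gave 1, 0 and 2 members higher in labelled males, 0, 0 and 1 in labelled females and 7, 1 and 5 in the average. They gave 3, 4 and 3 lower in labelled males, 3, 3 and 3 in labelled females, and 4 in the average on each of slides 2 and 3. Called probes on the 3 slides numbered 1052, 583 and 459 in labelled males, 1041, 319 and 346 in labelled females and 3499, 1525 and 1792 in the average, where all arrays gave 7131, 5878 and 11593. Fewer samples enter these fits. All called members kept their sign on each slide. The slides hold the same arrays that gave the calls, so this is no independent test.

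Leaving out 1 array gave 11 to 15 members higher in labelled males, 11 to 15 in labelled females and 18 to 20 in the average, and 6 to 7, 6 to 6 and 7 to 8 lower. Called probes ran from 5921 to 7482, 4778 to 6527 and 10793 to 12025. With the replicate number as a block, 15, 15 and 19 members were higher and 7 lower in each. Of 24 arrays 14 correlated best with an array of their own number. Same-numbered arrays always lay on the same slide, and the part of the slide in this was not tested. The replicate block brought Serpinc1 (adjusted p = 0.031 and 0.039 in limma, labelled males and females), Vtn in labelled males (0.042) and C2 in the average (0.03) past the threshold. The slide block gave 14, 15 and 18 higher. Without labelled female control 4 and female pesticide 3, a choice made after seeing the data, 13, 12 and 19 were higher and 7, 5 and 7 lower. The other alternatives kept every count of members within 1.5 times.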
